A study of Mus musculus with 20 samples.

Results

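The genes described here are 10 secreted angiogenic factors: the vascular endothelial growth factor genes Vegfa, Vegfb, Vegfc and Vegfd, the placental growth factor gene Pgf, the angiopoietin genes Angpt1, Angpt2 and Angpt4, and the angiopoietin-like genes Angptl2 and Angptl4. They were taken as a named list from the 47729 genes of each count table, by Ensembl identifier, and all 10 passed the filter on low counts that left 14820 genes to be tested. Polyadenylated RNA of cultured C57BL6/J mouse colon fibroblasts was sequenced in 20 libraries, 4 in each of 5 groups, in a study of inflammatory fibroblasts and therapy resistance in rectal cancer. The groups were fibroblasts given medium conditioned by APTKA organoids in an irradiated arm (5 fractions of 2 Gy; irradiated APTKA), by APTK organoids in the same arm (irradiated APTK), by APTKA organoids or by APTK organoids without irradiation, and untreated fibroblasts, whose labels call them wild type. Conditioned medium was applied for 24 h. All groups were grown on plates in Advanced DMEM F12 with 10% serum. The labels do not expand APTK and APTKA, and do not say whether organoids or fibroblasts were irradiated. No untreated group was irradiated and no group received organoid medium that had not been conditioned. The labels do not state that libraries I to IV of a group had separate sources, and if they did not, a p-value reflects technical spread alone.

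VEGF-A drives the growth and leakiness of blood vessels through the receptors VEGFR1 (Flt1) and VEGFR2 (Kdr) on endothelial cells. VEGF-C and VEGF-D act on lymphatic vessels through VEGFR3 (Flt4) after proteolytic trimming, and VEGF-B and placental growth factor bind VEGFR1. Angiopoietin-1, made by perivascular and mesenchymal cells, activates the endothelial receptor Tie2 (Tek) and stabilises vessels, while angiopoietin-2 usually opposes it. Angiopoietin-like proteins resemble angiopoietins in sequence but do not bind Tie2. Fibroblasts are a common source of these factors, which act mostly on other cells.

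Sequencing depth ran from 17.3 to 31.6 M counts per library. Library IV of irradiated APTK lay nearer to another group than to its own. Its root mean square log2 distance was 0.357 to the mean of the other 3 irradiated APTK libraries and 0.284 to the mean of plain APTK. Library II was farther from the mean of the other libraries of that group (0.426) and from plain APTK (0.436). By chi-square over its degrees of freedom, libraries I and IV were the closest pair of that group (15.6, against 29.6 to 79.9). The group was thus uneven beyond library IV. By the same measure untreated I differed from untreated II to IV by 29.7 to 37.6, while II to IV differed among themselves by 8.95 to 15.8. By log2 distance to its own group untreated I (0.276) was like the other untreated libraries (0.260 to 0.285). APTKA I also lay slightly nearer to irradiated APTKA (0.266) than to its own group (0.280). Results of the 10 genes that rest on irradiated APTK are therefore given with and without library IV, and list counts without it where they differ. All 8 fibroblast markers were expressed (summed level 28306 to 62071 CPM, that is counts per M of the scaled library total). The 10 endothelial markers together reached 6.01 to 12.7 CPM, and 4 of them stayed below 0.5 CPM in every library, among them Cdh5, which had 1 count or none in each group. The 6 epithelial markers together reached at most 1.49 CPM, the 7 leukocyte markers at most 5.49 CPM, with Cd3e at 0, and the 4 adipocyte markers at most 0.245 CPM, with Lep at 0. In bulk RNA, fewer cells of a type and less RNA per cell cannot be told apart.

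Levels can be compared between genes only per exon length, here as CPM per kilobase (kb) of merged exons. In untreated fibroblasts Angptl2 was highest at 72.6 ± 4.32 CPM per kb (SD, n = 4), followed by Vegfa at 44.5 ± 4.56 and Vegfd at 28.4 ± 1.97, with no overlap between these neighbours. Angpt4 (12.9 ± 0.986 CPM per kb) and Vegfc (11.5 ± 0.835) came next and overlapped each other, as did Vegfb (7.0 ± 0.0696) and Angptl4 (6.92 ± 0.805). Angpt1 (0.574 ± 0.119), Pgf (0.570 ± 0.156) and Angpt2 (0.202 ± 0.0423 CPM per kb) were more than 10 times lower than Angptl4. In the 4 conditioned media, all libraries included, Vegfa and Angptl2 were the highest of the 10 genes, at 74.5 to 103 CPM per kb, and their libraries did not overlap only in APTK medium. Angptl4 was the next in each medium, at 20.8 to 34.7 CPM per kb (40.9 in irradiated APTK without library IV). Angpt1, Angpt2 and Pgf stayed lowest, between 0.0705 and 0.554 CPM per kb.

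**Figure D1:**
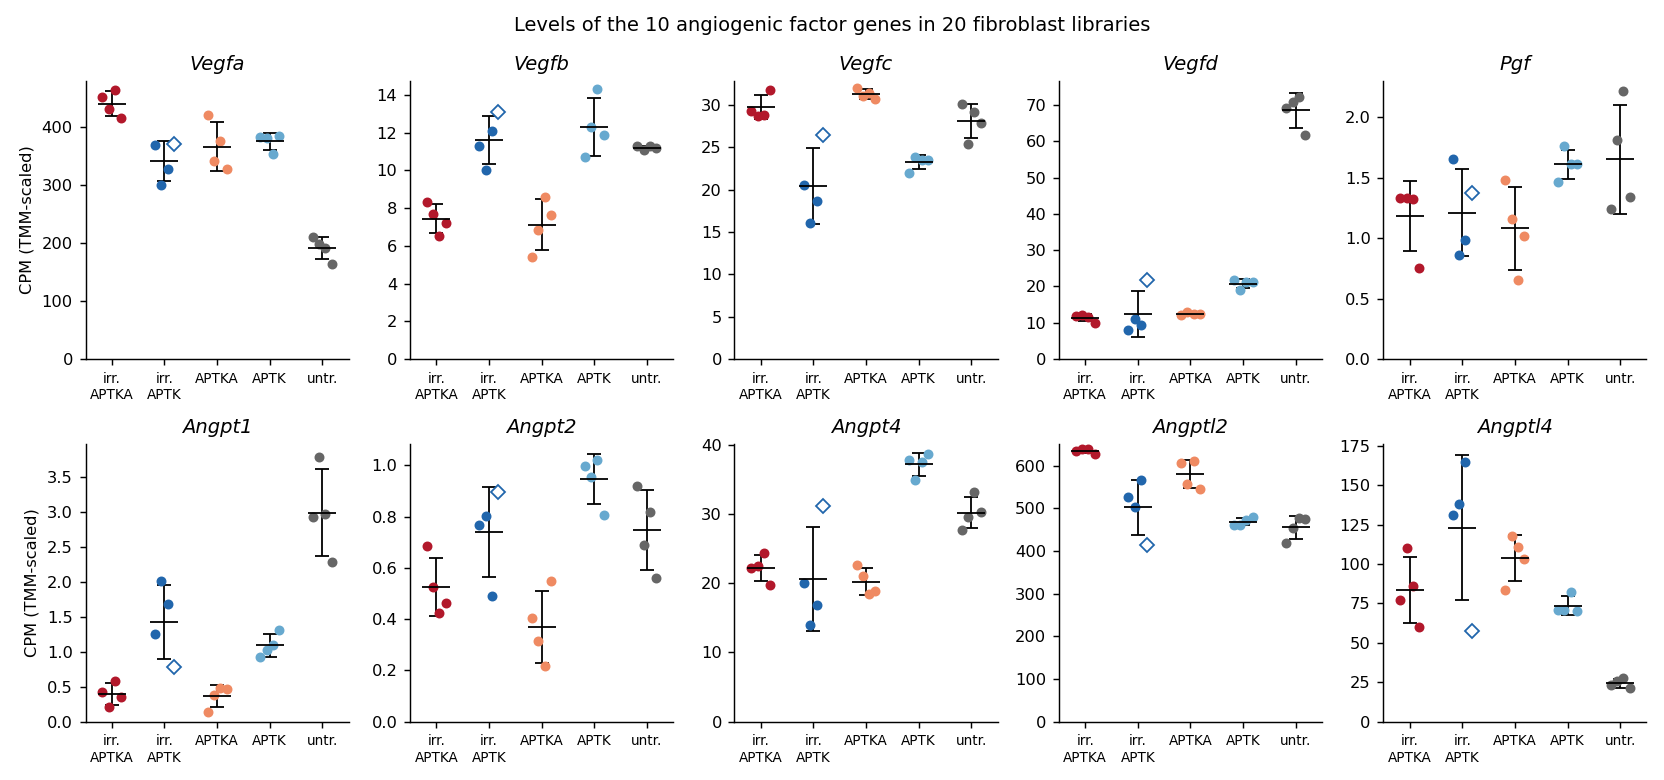
Level of each gene (CPM, scaled to TMM library totals, linear axis from 0) in the libraries of 5 groups; points are libraries, bars the mean ± SD, and the open diamond is irradiated APTK IV. Vegfd lies between 61.7 and 72.3 CPM in untreated libraries and at or below 21.9 CPM in the others, and Vegfa and Angptl4 are higher in each conditioned medium than in untreated cells.

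Each medium was first set against untreated fibroblasts. Without a group given unconditioned organoid medium, organoid products and the medium itself cannot be told apart here. In the irradiated arm, irradiation is a further difference from untreated cells. Vegfa and Angptl4 rose, and Angpt1 and Vegfd fell, with all 4 media. Angptl2 rose and Vegfb fell with the APTKA media, and Vegfc fell with the APTK media. Of the 10 genes, 3 were higher and 4 lower with irradiated APTKA medium, where edgeR called 61.0% of all genes tested (adjusted p below 0.05), 31.0% of them as higher and 30.0% as lower. With irradiated APTK medium 2 were higher and 4 lower, beside 43.6% of all genes called (21.5% higher, 22.2% lower). Without library IV 3 were higher and 4 lower, beside 42.3% (21.0% higher, 21.3% lower). With APTKA medium 3 were higher and 6 lower, beside 61.4% (31.5% higher, 29.9% lower), and with APTK medium 2 were higher and 3 lower, beside 43.4% (20.9% higher, 22.5% lower). The libraries of the 2 groups did not overlap for 7 of the 10 genes with irradiated APTKA (57.4% of all genes), 4 with irradiated APTK (32.6%; 7 without library IV, 39.0%), 9 with APTKA (56.1%) and 6 with APTK (42.8%). These counts describe a chosen list. The median log2 fold change of the 10 genes was -0.46 with irradiated APTKA, -0.24 with irradiated APTK (-0.35 without library IV), -0.58 with APTKA and 0.09 with APTK, against -0.01, 0.01, 0.00 and 0.00 over all genes tested in the same order. The 4 comparisons share the untreated libraries and are not independent.

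Vegfa, the main vessel growth factor (ENSMUSG00000023951, mm10 chromosome 17, 46016993 to 46032369, minus strand, 8 merged exons), had 451, 430, 464 and 415 CPM in irradiated APTKA libraries I to IV. It had 368, 300, 327 and 370 CPM in irradiated APTK, 421, 342, 375 and 327 CPM in APTKA and 383, 381, 353 and 384 CPM in APTK libraries, against 210, 198, 191 and 164 CPM in untreated libraries. Every conditioned library was above every untreated one. The log2 fold change over untreated was 1.21 ± 0.0791 (SE) with irradiated APTKA (adjusted p = 8.75e-13, edgeR quasi-likelihood test), 0.84 ± 0.0787 with irradiated APTK (3.43e-09; 0.80 without library IV), 0.94 ± 0.0787 with APTKA (9.31e-11) and 0.98 ± 0.0788 with APTK (2.50e-10). Per kb of exon, Vegfa made up 82.4% of the summed VEGF family RNA in irradiated APTKA, 79.2% in irradiated APTK (80.5% without library IV), 78.8% in APTKA and 76.9% in APTK, against 48.3% in untreated fibroblasts.

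Vegfd, a lymphatic and vascular growth factor once named Figf (ENSMUSG00000031380, chromosome X, 164373378 to 164402650, plus strand, 7 merged exons), moved the other way. Its levels were 11.9, 12.0, 11.6 and 9.95 CPM in irradiated APTKA, 7.91, 10.9, 9.36 and 21.9 CPM in irradiated APTK, 12.2, 13.0, 12.3 and 12.4 CPM in APTKA and 21.7, 19.0, 21.1 and 21.3 CPM in APTK libraries. Untreated libraries had 69.1, 70.8, 72.3 and 61.7 CPM, and no conditioned library came near them. The log2 fold change was -2.59 ± 0.199 with irradiated APTKA (adjusted p = 3.27e-09, edgeR), -2.43 ± 0.200 with irradiated APTK (2.92e-08; -2.87 without library IV), -2.45 ± 0.198 with APTKA (6.10e-09) and -1.72 ± 0.189 with APTK (1.07e-06). The Vegfd share of VEGF family RNA per kb was 3.79% in irradiated APTKA, 5.07% in irradiated APTK (4.12% without library IV), 4.82% in APTKA and 7.58% in APTK, against 30.9% in untreated cells.

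Vegfc (ENSMUSG00000031520, chromosome 8, 54077606 to 54187096, plus strand, 7 merged exons), the main lymphatic growth factor, had 29.3, 28.7, 28.8 and 31.8 CPM in irradiated APTKA and 20.5, 16.0, 18.6 and 26.4 CPM in irradiated APTK libraries. Levels were 32.0, 31.0, 31.4 and 30.7 CPM in APTKA and 22.0, 23.8, 23.5 and 23.5 CPM in APTK libraries, against 30.1, 25.4, 29.2 and 27.9 CPM in untreated libraries. The plain APTK libraries lay below the untreated range and the plain APTKA libraries just above it, while both irradiated groups overlapped untreated cells, irradiated APTK through library IV alone. The fall was called for irradiated APTK (log2 fold change -0.46 ± 0.0937, edgeR adjusted p = 0.000258; -0.61 without library IV) and APTK (-0.28 ± 0.0919, 0.0149). The values for irradiated APTKA (0.08 ± 0.0903, 0.487) and APTKA (0.15 ± 0.0904, 0.147) were not called, although APTKA passed when only APTKA and untreated libraries were fitted (0.16, 0.0355). Vegfd exceeded Vegfc per kb in untreated cells, with a ratio of 2.49 ± 0.260 (SD, n = 4), whereas the ratio was 0.392 ± 0.0495 in irradiated APTKA, 0.610 ± 0.198 in irradiated APTK (0.532 without library IV), 0.406 ± 0.0162 in APTKA and 0.914 ± 0.0814 in APTK.

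Vegfb, a VEGFR1 ligand linked to fatty acid uptake by endothelium (ENSMUSG00000024962, chromosome 19, 6982473 to 6987651, minus strand), had 8.32, 7.70, 6.51 and 7.23 CPM in irradiated APTKA and 5.41, 6.86, 8.61 and 7.64 CPM in APTKA libraries. It had 11.3, 10.0, 12.1 and 13.1 CPM in irradiated APTK and 10.7, 12.3, 14.3 and 11.9 CPM in APTK libraries, against 11.3, 11.1, 11.3 and 11.2 CPM in untreated libraries. The 8 APTKA libraries lay below all others. The fall was called for irradiated APTKA (-0.59 ± 0.115 on the log2 scale, edgeR adjusted p = 6.24e-05) and APTKA (-0.66 ± 0.116, 1.58e-05), while irradiated APTK (0.05 ± 0.113, 0.727; -0.01 without library IV) and APTK (0.13 ± 0.111, 0.350) were not called.

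Pgf, another VEGFR1 ligand (ENSMUSG00000004791, chromosome 12, 85166635 to 85177790, minus strand), was low in all libraries, with 15 to 57 counts each. Its mean was 1.18 ± 0.288 CPM in irradiated APTKA, 1.21 ± 0.361 in irradiated APTK (1.16 without library IV), 1.08 ± 0.342 in APTKA and 1.61 ± 0.122 in APTK, against 1.65 ± 0.454 CPM in untreated fibroblasts (SD, n = 4 each). All 4 conditioned groups overlapped the untreated libraries. A fall was called with APTKA medium alone (log2 fold change -0.59 ± 0.238, edgeR adjusted p = 0.0335), and it was lost without untreated II (adjusted p = 0.0737), untreated III (0.168), APTKA III (0.127) or APTKA IV (0.0701).

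**Figure D2:**
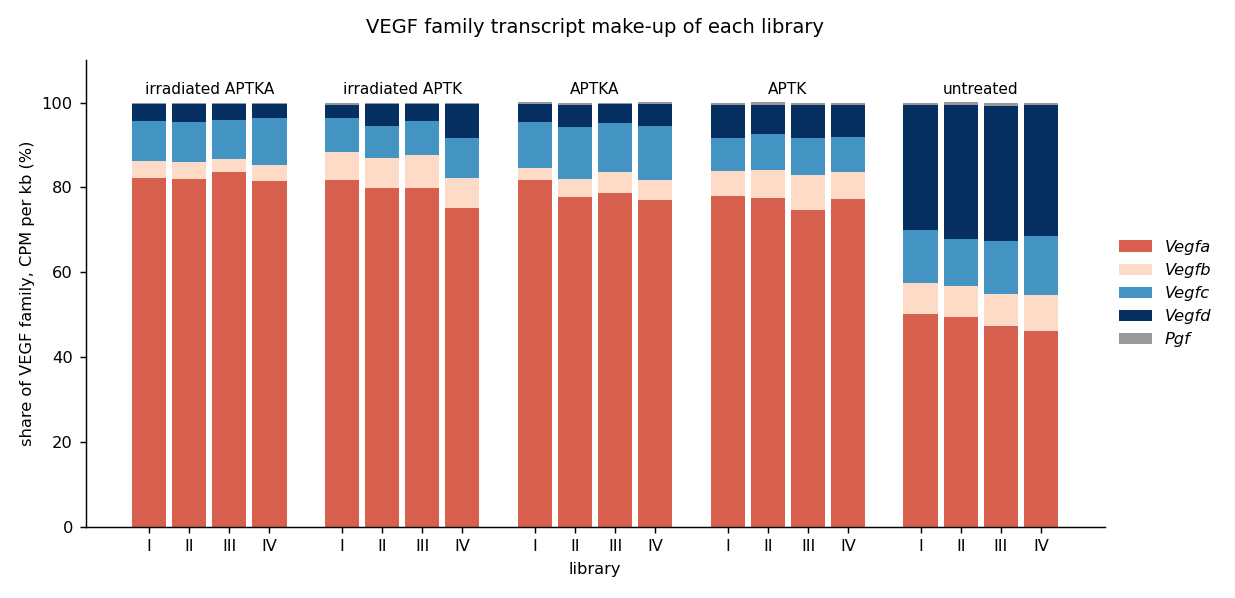
Share of each VEGF family gene in the family's summed CPM per kb of exon (%), one bar per library, with groups from left to right irradiated APTKA, irradiated APTK, APTKA, APTK and untreated. Vegfa takes 74.8 to 83.7% in conditioned libraries and 46.2 to 50.2% in untreated ones, and Vegfd 3.12 to 7.95% against 29.5 to 31.8%.

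The promoters of Vegfa, Vegfd and Vegfc are shown because these growth factor genes moved in opposite directions or apart under the same media. RefSeq (GRCm38.p6) promoter windows of 300 bases, 250 before and 50 after the start, were at hand for 7 of the 10 genes: Angpt4, Angptl2, Vegfa, Vegfb, Vegfc, Vegfd and Pgf. Motifs were searched as letters on both strands: the hypoxia response core ACGTG or GCGTG, the GC box GGGCGG, the AP-1 site TGANTCA, the cyclic AMP response element TGACGTCA, the C/EBP-ATF site TGATGNAA, the TATA box TATAAA and the E-box CACGTG, which contains the hypoxia core. Matches are in capitals, and each sequence reads 5′ to 3′ on the gene's own strand. Vegfa lies at chr17:46032328-46032627 (minus strand), Vegfd at chrX:164373272-164373571 (plus strand) and Vegfc at chr8:54077282-54077581 (plus strand).
Vegfa: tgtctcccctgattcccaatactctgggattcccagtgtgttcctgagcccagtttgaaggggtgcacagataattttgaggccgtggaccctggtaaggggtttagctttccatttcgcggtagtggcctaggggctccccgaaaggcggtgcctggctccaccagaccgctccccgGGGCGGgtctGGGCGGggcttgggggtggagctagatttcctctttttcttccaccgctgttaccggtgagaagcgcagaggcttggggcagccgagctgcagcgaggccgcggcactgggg
Vegfd: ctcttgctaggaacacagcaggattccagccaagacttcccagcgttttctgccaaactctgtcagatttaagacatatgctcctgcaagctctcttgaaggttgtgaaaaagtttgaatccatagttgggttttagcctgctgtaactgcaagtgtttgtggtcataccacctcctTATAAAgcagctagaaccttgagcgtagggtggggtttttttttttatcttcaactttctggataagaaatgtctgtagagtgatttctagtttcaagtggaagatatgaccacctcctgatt
Vegfc: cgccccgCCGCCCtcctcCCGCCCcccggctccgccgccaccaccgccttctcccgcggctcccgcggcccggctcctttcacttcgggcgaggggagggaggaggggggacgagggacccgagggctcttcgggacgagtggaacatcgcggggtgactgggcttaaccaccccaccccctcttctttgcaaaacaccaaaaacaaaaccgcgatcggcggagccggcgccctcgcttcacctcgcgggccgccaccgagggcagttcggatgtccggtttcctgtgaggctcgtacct
The Vegfa window held 2 GC boxes, starting 72 and 62 bases before the start, and the Vegfc window 2 GC boxes as well, while 35.7% of all 32851 mouse promoter windows held at least 1. The Vegfd window held no GC box. It held 1 TATA box, starting 73 bases before the start, and 13.6% of all windows held at least 1. None of these 3 windows matched the hypoxia core, which 43.8% of all windows matched, and a second Vegfa window, at an internal start, held 2 such cores and 1 GC box. Angpt4 had 4 hypoxia cores, 1 GC box and 1 TATA box, Vegfb 2 hypoxia cores and 4 GC boxes, Angptl2 2 GC boxes, and the main Pgf window 1 hypoxia core and 2 GC boxes. No window of the 7 genes matched the AP-1, cyclic AMP, C/EBP-ATF or E-box letters, found in 7.81%, 1.79%, 3.97% and 7.15% of all windows. A match is a run of letters and not a measured binding site.

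Angpt1, the ligand that activates Tie2 (ENSMUSG00000022309, chromosome 15, 42424723 to 42676977, minus strand, 10 merged exons), had 0.432, 0.217, 0.582 and 0.358 CPM in irradiated APTKA and 0.134, 0.385, 0.478 and 0.470 CPM in APTKA libraries, from 4 to 15 counts each. It had 1.26, 2.01, 1.68 and 0.780 CPM in irradiated APTK and 0.921, 1.03, 1.10 and 1.31 CPM in APTK libraries, against 2.92, 3.79, 2.97 and 2.28 CPM in untreated libraries. The groups formed steps without overlap, with the APTKA media lowest, the APTK media between and untreated cells highest. The log2 fold change was -2.92 ± 0.283 with irradiated APTKA (adjusted p = 8.30e-10, edgeR), -1.07 ± 0.238 with irradiated APTK (0.000588; -0.85 without library IV), -3.04 ± 0.291 with APTKA (6.51e-10) and -1.45 ± 0.241 with APTK (1.84e-05). Angpt1 shares 737 exon bases with Gm17473 on the opposite strand, which had 0 counts in the 20 libraries.

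Angpt2, the context-dependent Tie2 ligand (ENSMUSG00000031465, chromosome 8, 18690263 to 18741562, minus strand), was at the limit of detection, with 5 to 28 counts per library. Its levels were 0.684, 0.526, 0.426 and 0.465 CPM in irradiated APTKA, 0.769, 0.802, 0.491 and 0.897 CPM in irradiated APTK, 0.403, 0.315, 0.217 and 0.549 CPM in APTKA and 0.998, 0.955, 1.02 and 0.806 CPM in APTK libraries, against 0.919, 0.690, 0.820 and 0.560 CPM in untreated libraries. A fall was called with APTKA medium (-0.99 ± 0.282 on the log2 scale, edgeR adjusted p = 0.00350), where the APTKA libraries lay below the untreated ones. The values were -0.50 ± 0.261 with irradiated APTKA (adjusted p = 0.101), -0.03 ± 0.258 with irradiated APTK (0.929; -0.17 without library IV) and 0.34 ± 0.240 with APTK (0.257). The ratio of Angpt1 to Angpt2 per kb was 0.563 ± 0.289 in irradiated APTKA, 1.49 ± 0.782 in irradiated APTK (1.79 without library IV, whose own ratio was 0.616), 0.818 ± 0.558 in APTKA and 0.835 ± 0.223 in APTK, against 2.90 ± 0.715 in untreated cells (SD, n = 4 each).

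Angpt4, the mouse relative of the human Tie2 ligand angiopoietin-4 (ENSMUSG00000027460, chromosome 2, 151911210 to 151945337, plus strand), was the most abundant angiopoietin gene per kb in every group. It had 22.2, 22.5, 24.4 and 19.8 CPM in irradiated APTKA, 20.1, 14.0, 16.9 and 31.1 CPM in irradiated APTK, 22.6, 21.0, 18.4 and 18.9 CPM in APTKA and 37.8, 34.9, 37.5 and 38.7 CPM in APTK libraries, against 27.7, 29.5, 33.2 and 30.3 CPM in untreated libraries. The APTKA media and irradiated APTK I to III lay below the untreated libraries, and plain APTK lay above them. The log2 fold change was -0.44 ± 0.155 with irradiated APTKA (edgeR adjusted p = 0.0198), -0.54 ± 0.158 with irradiated APTK (0.00957; -0.82 without library IV), -0.57 ± 0.156 with APTKA (0.00374) and 0.30 ± 0.152 with APTK (0.116, not called). The call for irradiated APTKA was lost without untreated III (adjusted p = 0.0578) or irradiated APTKA IV (0.0608) and without the filter on low counts (0.0989). That for irradiated APTK was lost when only the 2 groups were fitted (0.0534), a fit that called the APTK value (0.000376).

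Angptl2, a secreted inflammatory mediator (ENSMUSG00000004105, chromosome 2, 33216069 to 33247717, plus strand), had 635, 638, 639 and 628 CPM in irradiated APTKA and 607, 557, 610 and 545 CPM in APTKA libraries. It had 526, 502, 567 and 413 CPM in irradiated APTK and 461, 462, 472 and 479 CPM in APTK libraries, against 419, 453, 477 and 476 CPM in untreated libraries. The APTKA media lay above all untreated libraries, and plain APTK overlapped them. The rise was 0.48 ± 0.0672 on the log2 scale with irradiated APTKA (edgeR adjusted p = 6.63e-07) and 0.35 ± 0.0672 with APTKA (6.47e-05). The values of 0.14 ± 0.0672 with irradiated APTK (0.0986) and 0.04 ± 0.0671 with APTK (0.678) were not called, but without library IV the irradiated APTK value was 0.22 ± 0.0552 and was called (0.00201), as it was with upper quartile scaling (0.16, 0.0424).

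Angptl4, a lipoprotein lipase inhibitor induced by fatty acids and low oxygen (ENSMUSG00000002289, chromosome 17, 33773750 to 33781830, minus strand), had 77.3, 110, 86.2 and 60.1 CPM in irradiated APTKA and 131, 138, 165 and 57.6 CPM in irradiated APTK libraries. It had 83.8, 118, 111 and 103 CPM in APTKA and 70.8, 70.7, 82.4 and 70.1 CPM in APTK libraries, against 23.6, 25.6, 27.8 and 21.1 CPM in untreated libraries. Every conditioned library was above every untreated one, and irradiated APTK IV was the lowest of the conditioned libraries. The rise was 1.77 ± 0.262 on the log2 scale with irradiated APTKA (edgeR adjusted p = 2.10e-05), 2.33 ± 0.265 with irradiated APTK (3.00e-06; 2.57 without library IV), 2.08 ± 0.263 with APTKA (3.54e-06) and 1.59 ± 0.263 with APTK (0.000136). Angptl4 was 0.233 ± 0.0571 times as abundant as Angptl2 per kb in irradiated APTKA, 0.424 ± 0.122 in irradiated APTK (0.483 without library IV), 0.320 ± 0.0544 in APTKA and 0.279 ± 0.0217 in APTK, against 0.0956 ± 0.0114 in untreated fibroblasts.

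**Figure D3:**
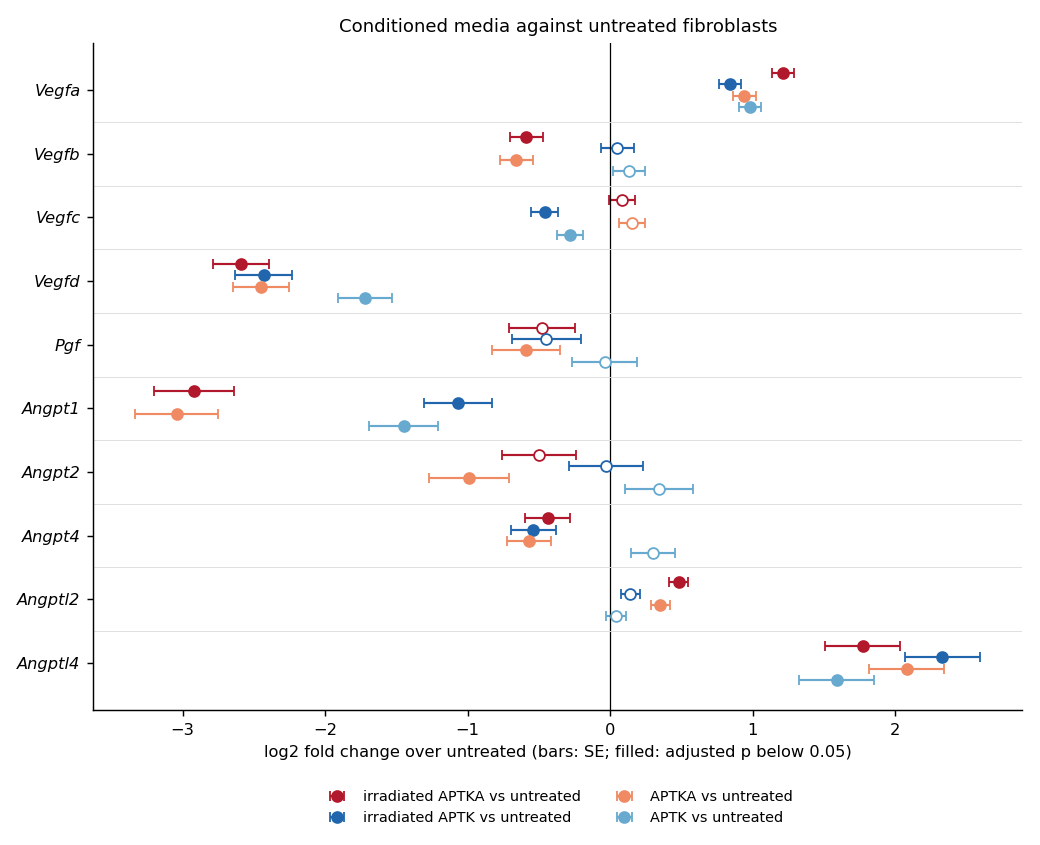
Log2 fold change of each gene over untreated fibroblasts for the 4 conditioned media, with bars of 1 SE; filled points have an adjusted p below 0.05 (edgeR). Vegfa (0.84 to 1.21) and Angptl4 (1.59 to 2.33) lie to the right for each medium, and Vegfd (-2.59 to -1.72) and Angpt1 (-3.04 to -1.07) to the left.

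The media of the 2 organoid lines were then set against each other. With APTKA medium, Angptl2 and Vegfc were higher and Angpt1, Angpt2, Angpt4, Vegfb, Vegfd and Pgf lower than with APTK medium, 8 of 10 genes where 62.9% of all genes were called (31.1% higher, 31.8% lower). The libraries of 8 genes did not overlap, beside 59.7% of all genes. The log2 fold change of APTKA over APTK was 0.31 ± 0.0672 for Angptl2 (edgeR adjusted p = 0.000259) and 0.43 ± 0.0913 for Vegfc (0.000174). It was -1.59 ± 0.337 for Angpt1 (0.000176), -1.33 ± 0.269 for Angpt2 (0.000104) and -0.88 ± 0.155 for Angpt4 (6.86e-05). Among the growth factors that fell it was -0.80 ± 0.115 for Vegfb (9.22e-07), -0.73 ± 0.203 for Vegfd (0.00441) and -0.55 ± 0.238 for Pgf (0.0449), the last overlapping between groups. The Pgf call was lost in the DESeq2 Wald test (0.0782) and without any one of APTKA II (0.0629), APTKA III (0.162), APTKA IV (0.0899), APTK II (0.0995), APTK III (0.0727) or APTK IV (0.0706). Vegfa did not differ detectably (-0.03 ± 0.0778, 0.722). Angptl4 had no overlap but was not called (0.50 ± 0.246, 0.0900), although it passed when only these 2 groups were fitted (0.00426) and with a replicate block (0.0438).

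In the irradiated arm, Angptl2, Vegfa and Vegfc were higher and Angpt1 and Vegfb lower with irradiated APTKA than with irradiated APTK medium, 5 of 10 genes beside 61.3% of all genes (30.1% higher, 31.2% lower). The log2 fold change was 0.34 ± 0.0672 for Angptl2 (edgeR adjusted p = 8.71e-05), 0.37 ± 0.0779 for Vegfa (0.000221) and 0.53 ± 0.0930 for Vegfc (1.68e-05). It was -1.85 ± 0.319 for Angpt1 (1.42e-05) and -0.65 ± 0.116 for Vegfb (2.26e-05), and the libraries of 5 of the 10 genes did not overlap between the media, beside 51.5% of all genes. Without irradiated APTK IV 5 genes were higher and 3 lower, beside 58.4% of all genes (29.0% higher, 29.4% lower), and 6 did not overlap, beside 55.8%. The added ones were Angpt4 (0.39 ± 0.0975, adjusted p = 0.00131), Vegfd (0.28 ± 0.0958, 0.0136) and Angptl4 (-0.79 ± 0.163, 0.000530). With all libraries Vegfd stood at -0.16 ± 0.213 (0.541), so its sign turned with that library. Angptl4 (-0.56 ± 0.245, 0.0598) was called with upper quartile scaling (-0.63, 0.0356) and without irradiated APTKA II (-0.72, 0.0262), and Angpt2 (-0.46 ± 0.269, 0.137) without irradiated APTK III (-0.65, 0.0479).

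Markers moved with the organoid line beside these genes. The summed pericyte and smooth muscle markers lay at 421 to 479 CPM in irradiated APTKA and 419 to 459 CPM in APTKA, against 678 to 791 CPM in irradiated APTK, 659 to 779 CPM in APTK and 635 to 728 CPM in untreated libraries. Of these 8 markers, 6 were lower and 1 higher with APTKA than with APTK medium, and all 8 fibroblast markers were lower. Of all genes, 31.8% were lower and 31.1% higher in that comparison. Endothelial markers together were at 6.01 to 7.12 CPM in irradiated APTKA and 6.15 to 7.63 CPM in APTKA, against 9.51 to 12.7 CPM in both APTK groups and 10.0 to 11.5 CPM in untreated libraries. That sum hides opposite moves of single markers, named here after their values were seen. With APTKA over APTK medium, Erg (-3.48), Vwf (-1.35) and Egfl7 (-0.68) were lower on the log2 scale. Tek (2.05) and Kdr (1.37) were higher, and Pecam1 (-0.54) was not called. Kdr in both media and Tek in APTK medium had means below 0.5 CPM, so these 2 values rest on few counts. The 4 lymphatic markers together were at 14.3 to 17.1 CPM in irradiated APTKA and 13.7 to 16.5 CPM in APTKA, against 9.44 to 12.9 CPM in both APTK groups and 8.40 to 9.80 CPM in untreated libraries. Pdpn, also made by fibroblasts, was the one that rose (0.58 with APTKA over APTK). Lyve1 fell in that comparison (-0.99 ± 0.347) and Flt4 was not called (0.12). Lyve1 was 1 of 2 lymphatic markers that stayed below 0.5 CPM in every library, so its value rests on few counts. The part of these markers in the results for the 10 genes was not tested.

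The last question was what the irradiated arm changed within each medium. With irradiated APTKA over APTKA medium none of the 10 genes was called by edgeR, beside 0.729% of all genes (0.452% higher, 0.277% lower). DESeq2 called 1, Vegfa. Over all genes DESeq2 called 295 of 13004 tested in that comparison. Vegfa averaged 440 ± 21.8 CPM in irradiated APTKA and 366 ± 41.6 CPM in APTKA libraries (SD, n = 4 each), which overlapped, with a log2 fold change of 0.26 ± 0.0778 (adjusted p = 0.115). It was called without the low-count filter (0.28, adjusted p = 0.00104), with only these 2 groups fitted (0.25, 0.0339), by DESeq2 (0.27, 0.0460) and without APTKA I (0.34, 0.0292). The other 9 genes lay between -0.31 (Angptl4) and 0.49 (Angpt2), with adjusted p of 0.438 or more. Angptl2 and Vegfd had no overlap between the groups (2 of 10 genes, beside 10.5% of all genes), with log2 fold changes of 0.13 and -0.13.

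With irradiated APTK over APTK medium, Angpt4 alone was called, at -0.84 ± 0.157 (edgeR adjusted p = 0.0160), beside 1.38% of all genes (0.547% higher, 0.837% lower). The Angpt4 mean was 20.6 ± 7.48 CPM in irradiated APTK and 37.2 ± 1.65 CPM in APTK libraries, and it alone did not overlap, beside 5.69% of all genes. The call was lost without APTK III (adjusted p = 0.0526), irradiated APTK I (0.0623) or irradiated APTK III (0.0607), and when only these 2 groups were fitted (0.208). Library IV was set aside for lying nearer to plain APTK than to its own group, so leaving it out favours a wider contrast here. The p-values of that fit describe the chosen libraries and are no independent support. Without irradiated APTK IV, 5 of the 10 genes were called, beside 8.45% of all genes (4.61% higher, 3.84% lower), and 6 did not overlap, beside 17.9%. These were Angptl4 (0.98 ± 0.163, 0.00153) and Angptl2 (0.18 ± 0.0552, 0.0381), which were higher, and Angpt4 (-1.13 ± 0.0966, 1.32e-08), Vegfd (-1.15 ± 0.0930, 5.33e-09) and Vegfc (-0.33 ± 0.0768, 0.00684), which were lower. In irradiated APTK libraries I to III, Vegfd averaged 9.39 ± 1.49 CPM and Angptl4 145 ± 17.6 CPM (SD, n = 3), against 20.8 ± 1.24 and 73.5 ± 5.94 CPM in APTK libraries (n = 4). Library IV had 21.9 CPM of Vegfd and 57.6 CPM of Angptl4. With all 4 libraries, the values were -0.71 ± 0.206 for Vegfd (0.0985; called by DESeq2, -0.73, 0.0345), 0.74 ± 0.246 for Angptl4 (0.155), -0.18 ± 0.0945 for Vegfc (0.389) and 0.10 ± 0.0672 for Angptl2 (0.520).

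**Figure D4:**
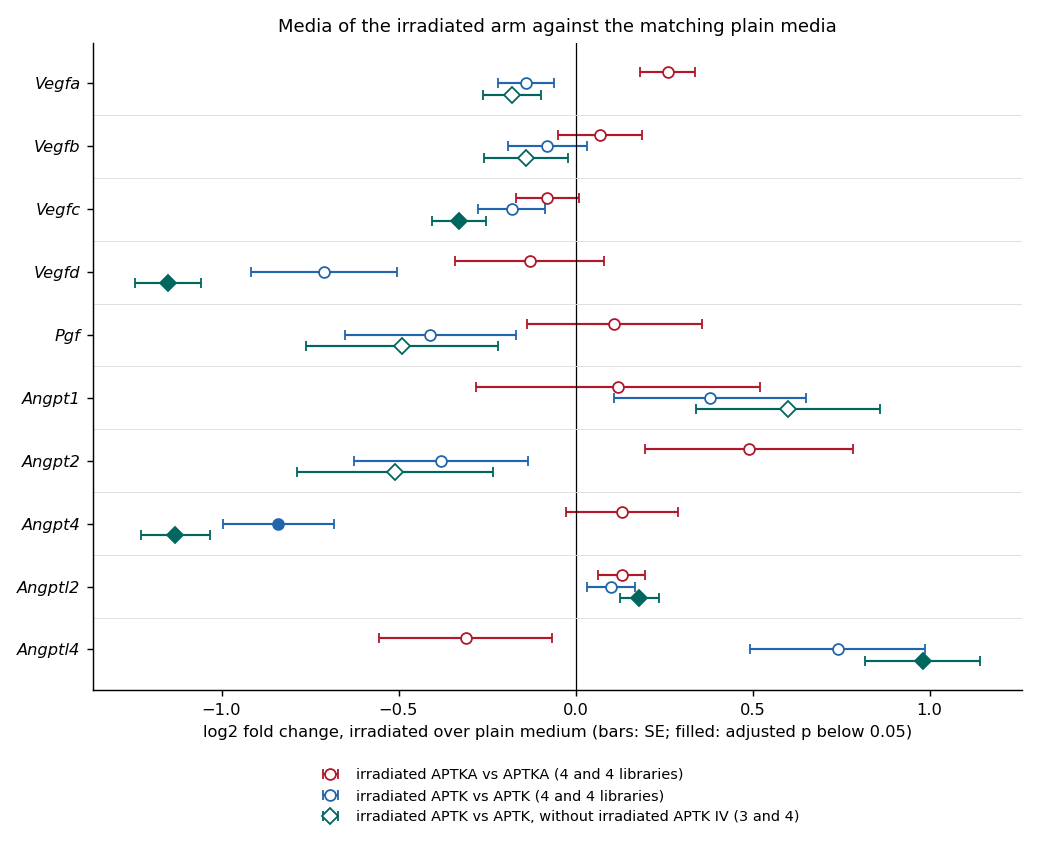
Log2 fold change of irradiated over plain medium for each gene, for APTKA, for APTK with all libraries, and for APTK without irradiated APTK IV, with bars of 1 SE; filled points have an adjusted p below 0.05 (edgeR). Without library IV, set aside for lying near plain APTK, the APTK values of Vegfd (-1.15), Angpt4 (-1.13) and Angptl4 (0.98) are farther from 0. With it they are -0.71, -0.84 and 0.74.

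The difference between the irradiation effects of the 2 media, APTKA minus APTK, was called by edgeR for none of the 10 genes. Of all genes, 0.182% were called (0.121% higher, 0.0607% lower). DESeq2 called 1 gene, Angpt4 (0.99, adjusted p = 0.00121), and the fit without the low-count filter 1, Vegfa (0.43, 0.000288). Over all genes these fits called 111 of 12414 and 209 of 31290 tested. Leaving out irradiated APTK IV favours a wider contrast here too, since it was chosen for lying near plain APTK, and those p-values are no independent support. Without irradiated APTK IV 4 genes were called, beside 2.04% of all genes (1.22% higher, 0.825% lower). They were Angpt4 (1.26 ± 0.129, 7.72e-07), Vegfd (1.01 ± 0.125, 1.33e-05), Vegfa (0.44 ± 0.112, 0.0351) and Angptl4 (-1.29 ± 0.223, 0.00488). With all libraries these stood at 0.98 ± 0.222 for Angpt4 (0.0981), 0.58 ± 0.294 for Vegfd (0.592), 0.40 ± 0.110 for Vegfa (0.151) and -1.06 ± 0.347 for Angptl4 (0.305).

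Receptors and processing partners of the factors were listed beside them. Of all genes, 31.0% were higher and 30.0% lower with irradiated APTKA, and 21.5% and 22.2% with irradiated APTK (21.0% and 21.3% without library IV). With APTKA the shares were 31.5% and 29.9%, and with APTK 20.9% and 22.5%. Of 10 receptor and co-receptor genes tested, 2 were higher and 6 lower with irradiated APTKA, 2 and 5 with irradiated APTK (1 and 5 without library IV), 2 and 6 with APTKA and 2 and 5 with APTK, all against untreated fibroblasts. Their median log2 fold changes were -0.29, -0.11, -0.45 and -0.13 in that order. Flt1, the receptor shared by VEGF-A, VEGF-B and placental growth factor, averaged 12.6 ± 1.77 CPM in irradiated APTKA, 12.3 ± 1.13 in irradiated APTK (11.7 without library IV), 12.9 ± 0.553 in APTKA and 12.7 ± 1.79 in APTK, against 6.98 ± 0.590 CPM in untreated cells. Its log2 fold change was 0.86, 0.81, 0.89 and 0.86 in the same order, each called by edgeR. Tek, the angiopoietin receptor, averaged 1.22 ± 0.159 CPM in irradiated APTKA, 0.264 ± 0.0783 in irradiated APTK (0.300 without library IV), 1.22 ± 0.224 in APTKA and 0.296 ± 0.118 in APTK, against 1.98 ± 0.483 CPM in untreated cells, and its fall was the largest of the list with both APTK media (-2.92 and -2.74). With the APTKA media the largest fall was that of Ptprb, a phosphatase that restrains Tie2 (-2.43 ± 0.102 and -2.79 ± 0.106). Kdr and Flt4 were named after their values were seen, as the main signalling receptors of VEGF-A and of VEGF-C and VEGF-D. Kdr averaged 0.386 CPM in irradiated APTKA, 0.136 in irradiated APTK, 0.309 in APTKA and 0.117 in APTK, against 0.417 CPM in untreated cells. It fell with irradiated APTK (-1.61 ± 0.388, edgeR adjusted p = 0.00138; -1.70 without library IV) and APTK (-1.80 ± 0.385, 0.000397), was not called with irradiated APTKA (-0.11, 0.776) or APTKA (-0.43, 0.256), and was higher with APTKA than with APTK (1.37 ± 0.404, 0.00443). Flt4 had group means of 1.78 to 2.23 CPM. Kdr in all groups and Tek in the APTK media had means below 0.5 CPM, so their changes rest on few counts.

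Among 10 genes that trim VEGF-C and VEGF-D, 4 were higher and 4 lower with irradiated APTKA, 2 and 4 with irradiated APTK (1 and 4 without library IV), 4 and 4 with APTKA and 3 and 5 with APTK. In the same order, 31.0%, 21.5%, 31.5% and 20.9% of all genes were higher and 30.0%, 22.2%, 29.9% and 22.5% lower. Ccbe1, a cofactor of VEGF-C cleavage, had the largest rise with irradiated APTKA (2.04 ± 0.0979) and APTKA (1.76 ± 0.0983), and Adamts3, the protease it assists, with APTK (0.77 ± 0.202). Pcsk5, a proprotein convertase, had the largest fall with each medium (-2.28, -2.31, -3.22 and -1.94, in the same order of media). Of 6 other angiopoietin-like and lipase partner genes tested, 5 were lower with irradiated APTKA, 4 with irradiated APTK (3 without library IV) and 4 with APTK, none of them higher, and with APTKA 5 were lower and 1 was higher. Angptl1 fell on the log2 scale with irradiated APTKA (-3.01 ± 0.578), APTKA (-3.65 ± 0.648) and APTK (-1.92 ± 0.505). With irradiated APTK, all libraries included, it was not called (-0.42 ± 0.42).

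Other secreted angiogenic factors and inhibitors moved in both directions, as all genes tested did. Of all genes, 31.0%, 21.5%, 31.5% and 20.9% were higher with irradiated APTKA, irradiated APTK, APTKA and APTK. Lower were 30.0%, 22.2%, 29.9% and 22.5%. Of 18 other angiogenic factors, 7 were higher in each medium (8 with irradiated APTK without library IV), and 4, 6, 6 and 6 were lower with irradiated APTKA, irradiated APTK, APTKA and APTK. Pdgfb, which recruits pericytes, had the largest rise with irradiated APTKA (4.23 ± 0.348) and APTKA (4.26 ± 0.349), and Ptn, a heparin-binding growth factor, the largest fall (-2.95 ± 0.0942 and -2.81 ± 0.0936). Of 14 endogenous inhibitors, 5 were higher and 7 lower with irradiated APTKA, 3 and 6 with irradiated APTK, 4 and 7 with APTKA and 3 and 5 with APTK. Timp3, which blocks VEGF-A binding to VEGFR2, had the largest fall with each medium (-2.50, -1.51, -2.86 and -1.52; without irradiated APTK IV that of Adamts1 was larger), and Cxcl10, a chemokine that restrains vessel growth, the largest rise (2.32, 1.59, 2.81 and 2.31).

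Vegfa and Angptl4 are textbook targets of hypoxia-inducible factors, Vegfa also of ATF4, and Angptl4 of peroxisome proliferator-activated receptors (PPAR). Shares of all genes called higher were 31.0%, 21.5%, 31.5% and 20.9% with irradiated APTKA, irradiated APTK, APTKA and APTK. Shares called lower were 30.0%, 22.2%, 29.9% and 22.5%. Of 28 other hypoxia-inducible factor targets, 16 were higher and 4 lower with irradiated APTKA, 20 and 3 with irradiated APTK, 14 and 6 with APTKA and 20 and 1 with APTK, with median log2 fold changes of 0.35, 0.48, 0.23 and 0.48. Slc16a3, a lactate exporter, had the largest rise (2.77, 2.78, 2.59 and 3.16) and Ndrg1 the largest fall in each. Of the same 28 genes, 2 were higher and 17 lower with APTKA than with APTK medium (median -0.28, against -0.03 over all genes). In that comparison 31.1% of all genes were higher and 31.8% lower. The part of these regulators in the changes of Vegfa and Angptl4 was not tested. Of 16 PPAR targets, 6 were higher and 6 lower with irradiated APTKA, 9 and 1 with irradiated APTK (12 and 1 without library IV), 7 and 7 with APTKA and 8 and 2 with APTK. Fabp4, a fatty acid binding protein, had the largest rise with irradiated APTK (2.09 ± 0.172) and APTK (2.03 ± 0.170).

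Of 16 ATF4 and stress response genes, 13 were lower and 2 higher with irradiated APTKA, 14 lower and none higher with irradiated APTK (13 and 1 without library IV), 14 lower and 2 higher with APTKA and 14 lower and none higher with APTK. In the same order, 30.0%, 22.2%, 29.9% and 22.5% of all genes were lower and 31.0%, 21.5%, 31.5% and 20.9% higher. Trib3, a stress-induced pseudokinase, had the largest fall with irradiated APTKA (-4.93 ± 0.303), irradiated APTK (-1.98 ± 0.249) and APTKA (-4.81 ± 0.301). Atf4 itself fell by 0.58, 0.40, 0.63 and 0.22 on the log2 scale in the 4 comparisons. Of 20 listed regulators, which are 18 transcription factors known to act on genes of this kind together with Vhl and Hif1an, which restrain hypoxia-inducible factors, 10 were higher and 7 lower with irradiated APTKA, 2 and 6 with irradiated APTK (2 and 5 without library IV), 9 and 7 with APTKA and 2 and 4 with APTK. Hif1an and Vhl are named outside the naming rule, after their values were seen. Hif1an was higher and Vhl lower with both APTKA media, and neither was called with the APTK media. Hif1a rose with irradiated APTKA (0.54 ± 0.0515) and APTKA (0.35 ± 0.0515), fell with irradiated APTK (-0.16 ± 0.0515) and was not called with APTK (-0.03 ± 0.0515). Epas1, which encodes the related HIF-2 alpha, rose with irradiated APTK (0.73 ± 0.147) and APTK (0.56 ± 0.147). Pparg fell with irradiated APTKA (-0.88 ± 0.0887), APTKA (-1.06 ± 0.0903) and APTK (-0.39 ± 0.0868), and Ppard passed the test only with irradiated APTKA (0.30 ± 0.128, adjusted p = 0.0468). Without library IV the log2 fold change with irradiated APTK was 0.75 for Flt1, -2.72 for Tek, -2.31 for Pcsk5, 1.31 for Cxcl10, -1.53 for Timp3 and 2.81 for Slc16a3. It was 2.25 for Fabp4, -2.38 for Trib3, -0.39 for Atf4, -0.17 for Hif1a and 0.72 for Epas1, each still called.

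**Figure D5:**
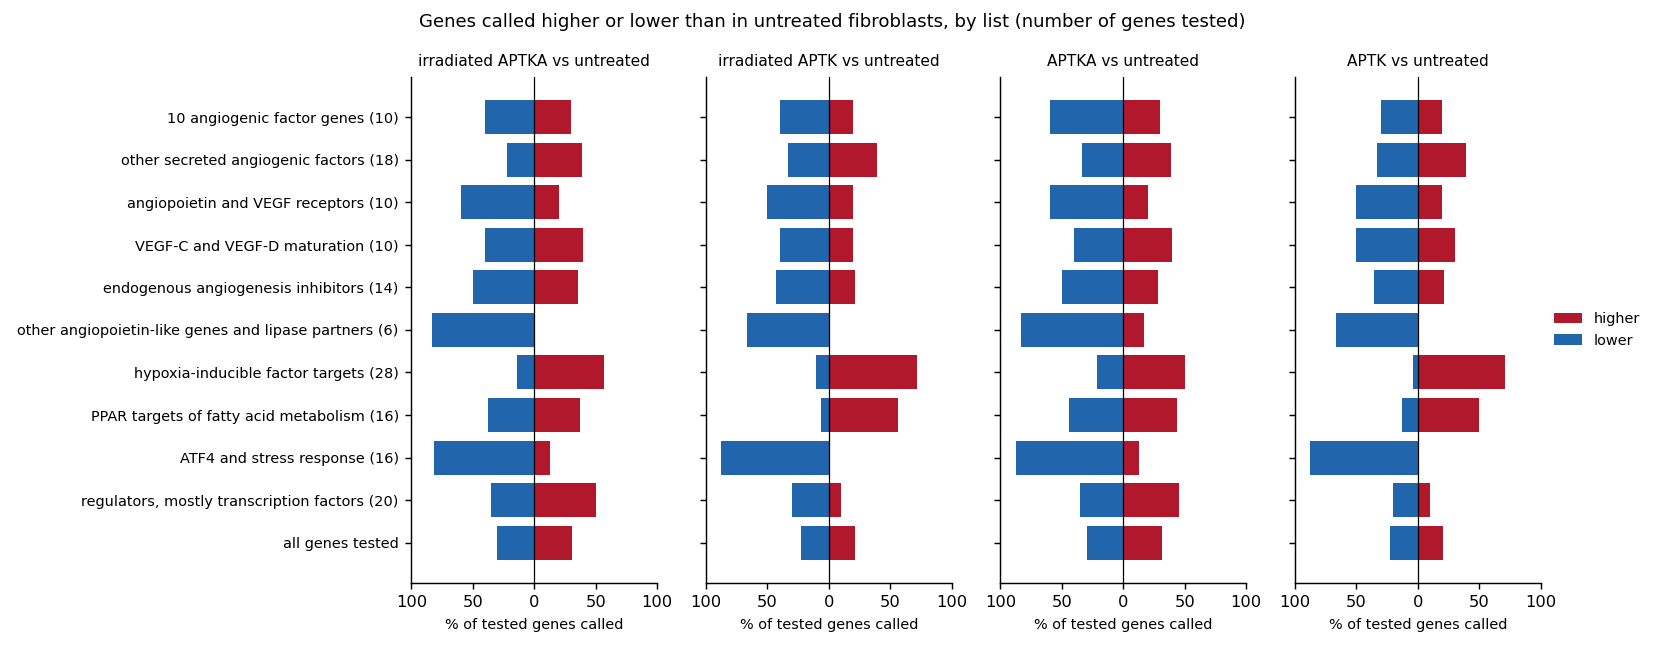
Percent of the tested genes of each list called higher (right) or lower (left) than in untreated fibroblasts for the 4 media, with all genes tested at the bottom (edgeR, adjusted p below 0.05; number of genes tested in brackets). Among hypoxia-inducible factor targets 14 to 20 of 28 genes are higher, and ATF4 and stress response genes are mostly lower, with 13 or 14 of 16.

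The genes whose log2 CPM followed each factor most closely over the 20 libraries were found by Pearson correlation. Candidates were the better expressed genes with a symbol that is not predicted, and inverse correlations were not ranked. Group differences and the library scaling are shared by all points. Vegfd was followed most closely by Pi15 (r = 0.985), Slc3a2 (0.966) and Zfp521 (0.960). Around the group means r was lower for all 30 pairs, at 0.52 to 0.85, and for these 3 it was 0.85, 0.57 and 0.66. Vegfa was nearest to Kif1a (0.949), Txnip (0.943) and Mst1r (0.938), Vegfc to Cdc42ep3 (0.955), Adamts5 (0.936) and Ddr1 (0.929), and Vegfb to Mfap2 (0.950), Smarcc2 (0.941) and Zc3hav1l (0.936). Angpt1 was nearest to Sema5a (0.951), Ghr (0.947) and Pik3r1 (0.944), and Angpt4 to Nfkbil1 (0.915), Slc37a4 (0.862) and Tgm2 (0.862). Angptl2 was nearest to Ippk (0.958), Zwint (0.951) and Psmd9 (0.947), and Angptl4 to Tgfbr3 (0.950), Dchs1 (0.947) and Hcfc2 (0.934). Angpt2 was nearest to Dcun1d1 (0.861), Naaladl2 (0.858) and Col28a1 (0.855), and Pgf to Cpeb3 (0.756), Col5a2 (0.755) and Fbxl20 (0.747).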

How the data were processed

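Gene counts were used as deposited: whole-number counts of reads per gene that the authors had not scaled. Tools given in the submitters' processing notes are STAR 2.5.2a, bcl2fastq 2.20.0.422 and featureCounts 1.5.0-p1, and the build is mm10. Annotation release, strandedness and the handling of multimapping reads are not stated in the sources used. A symbol was matched to 47224 of 47729 identifiers. Totals ran from 17.3 to 31.6 M counts. Every pair of replicates differed by more than counting noise would give (chi-square over its degrees of freedom, 4.45 to 79.9), and each library counted once.

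The main test was edgeR 4.0.16 (R 4.3.3), quasi-likelihood with TMM scaling and a robust fit. Its default low-count filter kept 14820 genes. Group means of all 20 libraries were fitted together (15 residual degrees of freedom) and every comparison was a contrast of them. Benjamini-Hochberg adjustment ran over all genes tested, with a threshold of 0.05. Standard errors (SE) are the size of the log2 fold change divided by the root of its F statistic. CPM used TMM-scaled totals. Alternatives were upper quartile and median-of-ratios scaling, no filter, a replicate block, only the groups compared, the Wald test of DESeq2 1.42.0 and leaving out each library.

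Samples were grouped by their titles. The genes, lists and tests were chosen with earlier results of these data known, so counts over a list describe it and are no independent support. All 10 genes are described. From the other lists, the largest rise and largest fall past the threshold in a comparison with untreated cells could be named, as could Hif1a, Epas1, Atf4, Ppard and Pparg, and per gene the 3 nearest genes by correlation (log2 CPM, prior count 2). The nearest genes were those with the highest positive r. They were sought among genes with a symbol that is not predicted and a mean log2 CPM of at least 2. Exceptions are marked. One gene that this rule would name is not reported here. Coordinates are those of mm10, counted from 1, and promoter sequences are from RefSeq.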

Additional observations from a re-analysis of the deposited data

Results flagged for a closer look

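In 4 of 50 sets of 4 libraries (10 genes in 5 groups) 1 library stood apart, its gap to the nearest library over the group's range passing Dixon's critical value; chance alone flags about 1 set in 20. Pgf in irradiated APTKA had a ratio of 0.976, with library IV at 0.752 CPM and the others at 1.32 to 1.33 CPM. Angptl4 in APTK had a ratio of 0.946, with library III at 82.4 CPM and the others at 70.1 to 70.8 CPM. Vegfa in APTK had a ratio of 0.915, with library III at 353 CPM and the others at 381 to 384 CPM. Vegfc in APTK had a ratio of 0.831, with library I at 22.0 CPM and the others at 23.5 to 23.8 CPM.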

How the results depend on the processing

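The calls in which Vegfa and Angptl4 rose and Vegfd and Angpt1 fell against untreated cells held under all alternatives run. The number of the 10 genes called for irradiated APTKA over APTKA was 1 without the filter, with only the groups compared and with DESeq2. Those fits called 316 of 31290, 512 of 13937 and 295 of 13004 genes tested. For irradiated APTK over APTK the number of the 10 genes was 0 with only the groups compared (10 of 14038 genes tested) and 2 with DESeq2 (441 of 13004). For the difference of irradiation effects it was 1 without the filter (209 of 31290) and 1 with DESeq2 (111 of 12414). Leaving out 1 library tested 15001 to 15065 genes, whose calls are given in brackets. Against untreated it gave 8 to 9 of the 10 genes for APTKA (8658 to 8757) and 5 in each case for APTK (5799 to 6043). It gave 6 to 8 for irradiated APTKA (8575 to 8754) and 6 to 7 for irradiated APTK (5878 to 6442) against untreated. For APTKA over APTK it gave 7 to 8 (8873 to 9021), and for irradiated APTKA over irradiated APTK 5 to 8 (8623 to 9169). It gave 0 to 1 for irradiated APTKA over APTKA (34 to 146), 0 to 5 for irradiated APTK over APTK (32 to 1271) and 0 to 4 for the difference (4 to 307). The cause was not tested.

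Values of either sign near 0 turned. Pgf for APTK over untreated was 0.00 with upper quartile scaling, and for irradiated APTKA over irradiated APTK 0.01 without the filter. Leaving out 1 library gave ranges across 0 for APTK over untreated (Angptl2 -0.00 to 0.06, Pgf -0.15 to 0.14), irradiated APTK over untreated (Angpt2 -0.17 to 0.15, Vegfb -0.01 to 0.11) and APTKA over APTK (Vegfa -0.11 to 0.02). The same held for irradiated APTKA over irradiated APTK (Angpt4 -0.02 to 0.39, Vegfd -0.31 to 0.28, Pgf -0.13 to 0.14), irradiated APTKA over APTKA (Angpt1 -0.18 to 0.34, Vegfb -0.04 to 0.17, Pgf -0.05 to 0.31), irradiated APTK over APTK (Vegfb -0.14 to 0.00) and the difference (Angptl2 -0.05 to 0.10). None of these was called with all libraries.

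Replicate numbers did not pair the libraries: same-numbered libraries had deviations correlated at -0.11 to 0.10, and 6 of 20 libraries correlated best with their own number. With a replicate block, 87 of 90 values kept their call, Angptl4 passed for APTKA over APTK (0.50, adjusted p = 0.0438) and for irradiated APTKA over irradiated APTK (-0.53, 0.0326), and Pgf was lost for APTKA over APTK (-0.56, 0.0511). Over all genes, irradiated APTKA over APTKA had 108 calls, against 316 without the filter, 512 with only the groups compared and 295 with DESeq2. Irradiated APTK over APTK had 205, against 492, 10 and 441, and 1271 without irradiated APTK IV. The difference had 27, against 209 without the filter, 111 with DESeq2 and 307 without irradiated APTK IV. Upper quartile scaling moved the median of all genes to -0.10 for both comparisons of APTKA with APTK, and the calls for APTK over untreated to 3730 higher and 2898 lower, against 3099 and 3334. For irradiated APTKA over APTKA the calls were 47 higher and 47 lower under that scaling, against 67 and 41. Counts of 4 to 57 per library limit what can be said of Angpt1 in the APTKA media, Angpt2 and Pgf. Low counts also limit Kdr, Lyve1 and, in the APTK media, Tek.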
